A study of Homo sapiens with 10 samples.

Results

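Bait pairs are promoter interactions in which both fragments had been targeted by the capture, so that 1 promoter-containing restriction fragment was recovered in contact with another. They were found as the calls whose partner fragment was itself a bait on the same chromosome, with fragment midpoints at most 2 Mb apart. The lists merged over replicates held 38199 such pairs, 27095 in human embryonic stem cells (ESCs) and 26377 in neuroectodermal cells (NECs), out of 147538 called fragment pairs of any kind. They joined 18044 of the 21833 baits, and 488761 pairs of baits lay within the distance limit. The members were chosen by their interaction scores, and so the scores are described without a test.

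The study captured promoter contacts by promoter capture Hi-C (PCHi-C), in which cross-linked chromatin is cut with HindIII, ligated, and enriched with RNA probes for fragment ends that hold promoters. ESCs were the H9 (WA09) line, an established line derived from 1 embryo and grown here undifferentiated in a commercial medium and matrix, and NECs were the same cells carried through neural induction in culture and harvested on day 7. Each cell type had 2 biological replicates of PCHi-C and 2 of mRNA-seq, all from the 1 line. Scores are those of CHiCAGO, a method that weighs the reads of a fragment pair against the number expected at that distance, and a pair was listed at a score of at least 12.

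A promoter that touches another promoter can lie in a shared transcription site, in a shared Polycomb-bound domain, or close by in a dense gene cluster. Polycomb-group proteins hold many developmental regulators silent in pluripotent cells, the HOX clusters being the best known case, and clustered histone genes gather in a nuclear body where their transcripts are made. Loops between distant sites are often anchored by CTCF, a zinc finger protein whose motif has a direction, and the motifs at the ends of a loop usually face each other.

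The sequences of a few promoters and anchors on which the results turn are shown first. The promoter windows are 300 bases of GRCh37 that end 50 bases inside the gene, written along the gene's strand, and capitals mark the letters TATAAA on the gene strand and CCAAT and GGGCGG on either strand. LEFTY2, an inhibitor of Nodal signalling, was joined to its paralogue LEFTY1 in ESCs and was silent in NECs. The 4 histone genes are the ends of the pair with the highest NEC score across the gap of histone cluster 1 and of the highest within its right block.
LEFTY2 promoter, chr1:226129140-226129439, minus strand: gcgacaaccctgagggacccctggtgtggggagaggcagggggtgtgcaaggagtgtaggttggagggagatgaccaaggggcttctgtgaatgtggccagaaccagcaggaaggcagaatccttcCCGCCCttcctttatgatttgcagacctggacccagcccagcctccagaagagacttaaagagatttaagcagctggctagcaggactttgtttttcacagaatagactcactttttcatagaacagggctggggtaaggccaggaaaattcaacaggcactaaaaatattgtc
HIST1H3E promoter, chr6:26225133-26225432, plus strand: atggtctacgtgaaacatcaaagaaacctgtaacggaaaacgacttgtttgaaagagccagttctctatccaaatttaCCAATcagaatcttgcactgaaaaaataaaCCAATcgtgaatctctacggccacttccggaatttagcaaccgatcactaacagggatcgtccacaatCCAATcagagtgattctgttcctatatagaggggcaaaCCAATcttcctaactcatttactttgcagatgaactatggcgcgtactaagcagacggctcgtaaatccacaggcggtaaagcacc
HIST1H4I promoter, chr6:27106826-27107125, plus strand: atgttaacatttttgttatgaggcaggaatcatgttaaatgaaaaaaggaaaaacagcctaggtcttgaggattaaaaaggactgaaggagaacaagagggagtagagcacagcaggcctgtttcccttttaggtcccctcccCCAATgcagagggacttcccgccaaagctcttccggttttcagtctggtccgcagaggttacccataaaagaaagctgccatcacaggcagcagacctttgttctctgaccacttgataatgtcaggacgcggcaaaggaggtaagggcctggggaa
HIST1H2BK promoter, chr6:27114570-27114869, minus strand: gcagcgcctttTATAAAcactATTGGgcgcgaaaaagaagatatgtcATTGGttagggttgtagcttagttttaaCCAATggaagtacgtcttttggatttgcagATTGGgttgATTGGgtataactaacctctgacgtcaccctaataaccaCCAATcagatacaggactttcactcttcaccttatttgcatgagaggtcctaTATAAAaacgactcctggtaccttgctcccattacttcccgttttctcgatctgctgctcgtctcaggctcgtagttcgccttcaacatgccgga
HIST1H1B promoter, chr6:27835310-27835609, minus strand: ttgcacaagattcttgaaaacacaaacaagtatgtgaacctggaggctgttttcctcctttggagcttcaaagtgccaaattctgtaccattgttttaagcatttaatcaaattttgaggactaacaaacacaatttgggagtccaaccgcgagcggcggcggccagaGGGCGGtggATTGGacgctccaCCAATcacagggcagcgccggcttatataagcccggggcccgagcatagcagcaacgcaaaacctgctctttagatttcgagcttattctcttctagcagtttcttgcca

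Of the windows at all 22223 gene starts that lie in a bait, 7.05% held TATAAA, 34.4% held CCAAT and 47.8% held GGGCGG. Over the 55 histone cluster 1 starts the shares were 58.2%, 87.3% and 30.9%. The HIST1H2BK window held TATAAA 2 times and CCAAT 6 times, and the HIST1H3E window held CCAAT 4 times. Starts at baits that took part in a bait pair had a median GC content of 59.3% and 16 CpG, against 53.7% and 9 CpG at baits that took part in none. The letters are a description of the windows and no sign that a factor binds there.

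The 3 pairs of baits with the highest scores among those called in all 4 replicates whose CTCF core matches face each other are shown as 42 bases of the plus strand around each match, with the 12-letter core in capitals. The left match of each pair fits the 12-letter CTCF core consensus in the forward direction, and the right match fits the reverse complement of that consensus.
RP11-54O7.1, left, chr1:840136-840177: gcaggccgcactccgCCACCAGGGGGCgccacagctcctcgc
RP11-54O7.3 and SAMD11, right, chr1:873611-873652: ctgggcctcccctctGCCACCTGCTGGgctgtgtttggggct
DTX4, left, chr11:58939051-58939092: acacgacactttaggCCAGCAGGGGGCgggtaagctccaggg
OR5A2, right, chr11:59197569-59197610: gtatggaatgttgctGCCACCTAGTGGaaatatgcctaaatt
Bait without a gene start on chromosome 4, left, chr4:110920098-110920139: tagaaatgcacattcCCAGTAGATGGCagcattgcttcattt
RP11-380D23.1, right, chr4:111437694-111437735: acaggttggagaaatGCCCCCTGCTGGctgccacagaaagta

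The replicates were compared before any result was read from the lists, and they did not group by cell type. The ESC replicates held 24072 and 25437 bait pairs and the NEC replicates 25461 and 21387. Of the pairs in either of 2 lists, 27.9% were in both ESC replicates and 22.2% in both NEC replicates. The first ESC and the first NEC replicate shared 29.3%, more than either pair of replicates of 1 cell type, and the other mixed pairs shared between 21.05% and 26.9%. Presence in only 1 merged list is therefore no evidence of a difference between the cell types, and the pairs named below as found in 1 cell type were called in both of its replicates and in no list of the other. Even such a pair may lie just under the score of 12 in the other cell type, since the lists give no score below it.

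Bait pairs were nevertheless called more repeatably than contacts with other fragments. Of the merged ESC bait pairs 39.4% were called in both ESC replicates and 15.2% in neither, against 16.6% and 32.7% of the calls to fragments that were not baits. In NECs 32.0% were called in both replicates and 16.6% in neither, against 17.2% and 28.7% of the other calls. The merged lists of the cell types shared 15273 bait pairs, 56.4% of those in ESCs and 57.9% of those in NECs, which was 39.98% of all pairs in either list, against 24.3% for other fragments. Since bait pairs have higher scores and can be captured from either end, the part of these features in their repeatability was not tested.

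Near the threshold, 4252 ESC and 4117 NEC bait pairs scored within 0.5 of the limit of 12, and 10897 and 10726 scored 15 or more. The longest pairs inside the distance limit were 1991 kb (ESCs) and 1992 kb (NECs) long, and the nearest ones outside 2005 and 2000 kb. The median score was 14.2 in both cell types, and calls to other fragments had medians of 13.3 and 13.4. The median distance came to 186 kb for the ESC pairs and 196 kb for the NEC pairs, with 199 and 225 kb for the other calls.

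Contacts between baits were called much more often than contacts of a bait with another fragment at every distance. In ESCs 16.7% of the possible lines from a bait to another bait under 25 kb were called, against 2.38% of those to other fragments, and at 1 to 2 Mb the shares were 0.258% and 0.0155%. The ratio of the shares over the 7 distance windows ranged from 7.03 to 16.6 in ESCs and from 7.06 to 12.7 in NECs. In the single replicates it ranged from 6.67 to 23.6. Probes against both fragments enrich such products by themselves, and this part of the ratio was not tested.

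**Figure D1:**
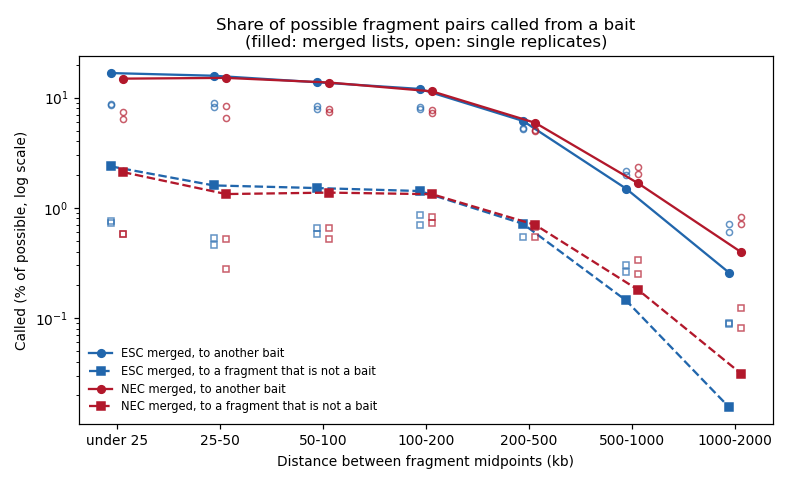
Share of possible lines from a bait that were called (percent, log axis) against the distance between fragment midpoints (kb), to another bait (circles) and to other fragments (squares), in ESCs and NECs. Filled symbols are the merged lists and open symbols the 4 replicates, and at each distance the bait partners lie above the other partners, by at least 6.67 times in each list.

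A contact between baits can be read from both of its ends, which gives a check inside 1 library. In ESCs 4239 pairs, 15.6%, were called from both ends, and in NECs 4840 pairs, 18.3%. The share in the single libraries was 7.23% and 8.04% in ESCs and 6.198% and 18.5% in NECs, so that the second NEC library stood apart. For pairs called from both ends the median score reached 16.8 in ESCs and 17.3 in NECs, compared with 13.9 and 13.8 where only 1 end was called, and their 2 scores differed by a median of 2.58 and 2.75. They were called in both ESC replicates in 55.3% of cases (95% Wilson interval 53.8 to 56.8) and in both NEC replicates in 52.7% (51.3 to 54.1), against 36.4% (35.8 to 37.0) and 27.3% (26.7 to 27.9) of pairs called from 1 end. The intervals cover counting error only, and pairs share baits.

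The baits with the most bait partners were histone genes. The bait of HIST1H2BK and HIST1H2AH had 37 partners in ESCs (33 and 37 in the replicates) and 48 in NECs (45 and 55), and that of HIST1H3G and HIST1H2BI had 32 (33 and 32) and 44 (33 and 49). The bait of HIST1H2AB had 33 and 36 partners, and that of HIST1H4H 32 and 40. Outside the cluster, PCDHB5, a clustered protocadherin, had 28 partners in ESCs and 30 in NECs. TMEM223 with TMEM179B, membrane protein genes, had 28 and 31, and ZFHX2 with THTPA had 24 and 34. The median bait had 2 partners in ESCs and 1 in NECs, while 5792 and 6076 baits had none. Baits with 10 or more partners in ESCs had a median GC content of 50.7% and 29 other baits within 500 kb, against 43.8% and 7 for baits with none, and the part of bait density and base composition in the number of partners was not tested.

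Expression at the ends of the pairs was taken from the mRNA-seq, and a gene is called expressed at 1 CPM (read count scaled to library size) or more in the mean of its cell type. In ESCs 21482 pairs had a gene start at both ends, of which 10520 (49.0%) had an expressed gene at both, 7526 (35.0%) at 1 and 3436 (16.0%) at neither. In NECs 21439 pairs did, of which 11430 (53.3%), 7106 (33.1%) and 2903 (13.5%) fell in these classes. Of all possible pairs within 2 Mb, 42.4% had both ends expressed in ESCs and 43.3% in NECs. A bait counts as expressed when any gene that starts in it is.

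At short range, pairs with both ends expressed were called most often in the merged lists. At 100 to 200 kb, leaving out histone baits, 24.99% of the possible ESC pairs with both ends expressed were called against 17.2% of those with neither, and in NECs 25.03% against 13.1%. At 25 to 50 kb the shares were 34.8% and 23.2% in ESCs and 32.8% and 20.9% in NECs. Under 25 kb they were 31.2% and 23.5% in ESCs and 27.7% and 24.8% in NECs. In the second replicates these shares were nearly equal, at 16.7% and 16.3% in ESCs and 12.2% and 12.1% in NECs. With the histone baits their order was reversed, at 16.7% and 18.3% in ESCs and 12.3% and 13.9% in NECs. Beyond 200 kb the cell types parted. At 200 to 500 kb ESC pairs with both ends expressed and with neither were called at 11.8% and 11.4%, while NEC pairs were called at 12.9% and 7.92%.

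The same contrast was seen when the set of pairs was held fixed. Among 8145 possible pairs at 200 to 500 kb whose ends were silent in both cell types, 11.1% were called in merged ESCs and 8.02% in merged NECs. The ESC replicates gave 10.8% and 10.2% and the NEC replicates 9.21% and 6.11%. Among 24857 pairs with both ends expressed in both cell types the shares were 11.97% and 12.9%. Here the replicates overlapped, at 10.2% and 11.4% for ESCs and 10.8% and 11.8% for NECs. For silent pairs the replicates of the cell types did not overlap at this distance. The shares in this paragraph include the histone baits unless stated, and with them the replicates overlapped or met in every other window. At 100 to 200 kb the lower ESC and the higher NEC replicate both stood at 11.6%. At 500 kb to 1 Mb the silent shares were 4.26% and 4.57% (ESCs) against 4.69% and 2.93% (NECs). At 1 to 2 Mb they were 1.58% and 1.76% against 2.16% and 1.72%. Without the histone baits the replicates did not overlap at 100 to 200 kb either, at 12.8% and 11.3% (ESCs) against 11.1% and 7.10% (NECs). The contrast in silent pairs thus rests on 1 window with the histone baits, and also on 100 to 200 kb without them. An exact permutation test of 2 replicates against 2 gives no two-sided p under 0.333, and no other test was run.

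At 1 to 2 Mb the result turned on the histone genes. With them, 0.808% of silent ESC pairs and 0.393% of expressed ESC pairs were called, and without them 0.399% and 0.379%. In NECs the shares were 1.27% and 0.677% with the histone baits and 0.522% and 0.656% without them.

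**Figure D2:**
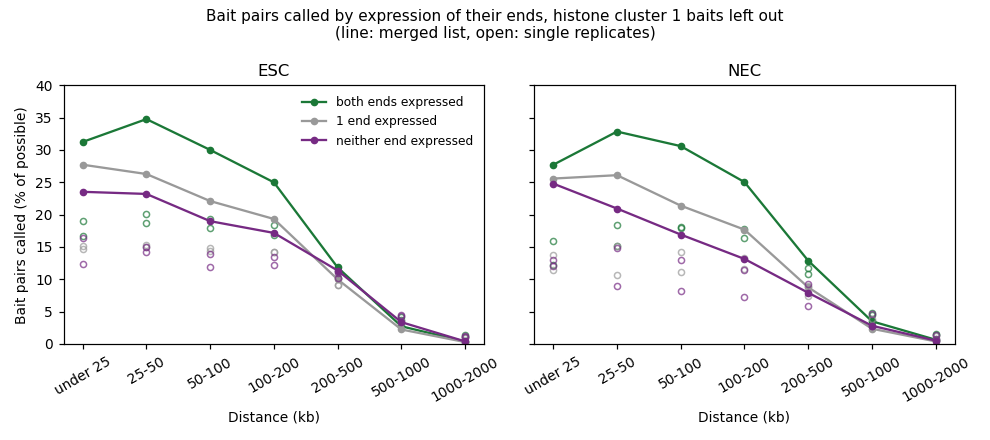
Share of possible bait pairs called (percent) against distance (kb) in ESCs and NECs, for pairs with both ends expressed, 1 end expressed or neither, without histone cluster 1 baits. Lines are the merged lists and open symbols the replicates, and at 200 to 500 kb the silent pairs stand at 11.4% in ESCs and 7.92% in NECs.

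The levels of the genes at the ends were also compared over baits with a single gene start. Spearman's rho between the levels (CPM) at the ends reached 0.26 in ESCs and 0.25 in NECs over 17641 called pairs, and 0.07 in both over 195896 pairs called in no list. Under 200 kb it was 0.28 for called and 0.27 for uncalled ESC pairs, so that the contrast came from 200 kb to 2 Mb, where it was 0.24 against 0.05. Distances were not matched within this range. Over all baits, 8671 of 81358 possible ESC pairs were called at 200 to 500 kb and 945 of 222961 at 1 to 2 Mb. Called pairs thus lay closer than uncalled ones, and the part of distance in the contrast was not tested. For the log2 fold change from ESCs to NECs, rho was 0.12 over 9085 called pairs and 0.02 over 84830 uncalled ones. Under 200 kb these values were 0.18 and 0.11, and at 200 kb to 2 Mb they were 0.06 and 0.01. These values run across pairs that share baits, neighbourhoods and libraries, and are descriptions only.

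The marker genes of the cells went with their labels. Of 10 pluripotency genes 7 were lower in NECs, POU5F1 falling from 1482 and 1438 CPM in the ESC libraries to 31.0 and 111 CPM in the NEC libraries, and of 9 neuroectoderm genes tested 8 were higher. Of 10 neural crest genes 6 were higher and 1 was lower, and of 10 mesendoderm genes 8 were lower and 1 was higher. Over all genes tested, 11.4% were higher and 9.68% lower. The summed level of the mesendoderm list was 101 and 228 CPM in ESCs and 50.1 and 33.4 CPM in NECs, so the ESC libraries also differed. The summed level of the neural crest list was 131 and 129 CPM in ESCs and 217 and 78.1 CPM in NECs. SOX10, a neural crest regulator, stood at 18.4 CPM in 1 NEC library and 0.689 CPM in the other, so the NEC libraries differed in these genes. The mRNA-seq libraries of each cell type shared a sequencing lane of their own, and lane and cell type cannot be told apart.

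Marker promoters varied in their number of bait partners. PAX6, the eye and forebrain regulator, rose from 1.64 and 1.13 to 86.5 and 52.9 CPM and had 11 bait partners in ESCs and 10 in NECs, with 8 and 7 of them in both replicates, among them IMMP1L with ELP4, DCDC5 and DCDC1 with DNAJC24 in both cell types. SIX3, a forebrain homeobox gene, had 6 and 5 partners, of which 5 were in both ESC replicates, its paralogue SIX2 among them, and 0 in both NEC replicates. Single replicates gave it 6 and 7 partners in ESCs and 7 and 1 in NECs. PAX3, a neural crest regulator, had 3 and 4 partners. GATA4, an endoderm and heart factor, had 7 and 8, with 4 in both replicates of each cell type, FAM167A among them. POU5F1 had 4 and 3 partners, none of them in both replicates of a cell type, and SOX2 and SOX9 had none in a merged list. NANOG, DNMT3B, LHX2 and SIX6 do not start in a bait of the lists.

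Genes at bait pairs were called slightly less often than all genes tested, a set that includes them, and less often than genes at baits with no bait pair. Of 13502 tested genes at a bait pair, 1458 were higher in NECs (10.8%) and 1144 lower (8.47%), against 11.4% and 9.68% of all 17564 genes tested (edgeR's quasi-likelihood test, with the adjusted p below 0.05 and a log2 fold change beyond 1.5 either way). Of the 15318 tested genes that start in any bait, 11.0% were higher and 8.74% lower, close to the shares at bait pairs. Of 1816 genes at baits with no bait pair 223 were higher (12.3%) and 195 lower (10.7%). Genes at the 2037 pairs called in both ESC replicates and no NEC list numbered 2639, with 278 higher (10.5%) and 243 lower (9.21%). Genes at the 1568 pairs called in both NEC replicates and no ESC list numbered 2194, with 264 higher (12.03%) and 144 lower (6.56%). At the 4244 pairs called in all 4 replicates, 445 of 4216 genes were higher and 328 lower.

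The direction of change was then compared between the 2 ends. Both ends were higher in NECs at 419 called pairs and lower at 186, and the ends went opposite ways at 254, so that 70.4% of 859 pairs with a changed gene at each end moved in 1 direction, against 54.1% of 8798 such possible pairs within 2 Mb. Gamma protocadherins count into this, since their transcripts share exons and reads. Without protocadherin baits the share was 67.2% (501 and 245 pairs) against 53.2%, and with overlapping changed genes also left out it was 64.9% (448 and 242) against 52.4%.

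Among all possible pairs, the closer ones moved in 1 direction more often, and the comparison was therefore repeated by distance on the last of these sets. Under 100 kb 76.7% of called and 69.5% of possible pairs moved in 1 direction, at 100 to 200 kb 64.6% and 58.0%, at 200 to 500 kb 60.4% and 53.8%, and at 500 kb to 2 Mb 57.8% and 50.2%. The called pairs lay 6 to 8 percentage points higher in each window. Their own 95% Wilson intervals were 69.9 to 82.4, 56.9 to 71.6, 53.8 to 66.6 and 49.3 to 65.8. They include the share of the possible pairs in 3 of the 4 windows and reach nearly to it in the other. The possible pairs include the called ones, which draws their share towards that of the called pairs. The intervals therefore cannot settle how called pairs compare with uncalled ones. They also cover counting error only, and pairs share baits.

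Among the 4244 pairs in all 4 replicates, 106 had a changed gene at both ends, 62 with both higher, 25 with both lower and 19 opposite. Of these 21 were protocadherin pairs, and 66 of the other 85 moved in 1 direction. The pairs found in ESC replicates only gave 44, with 14 higher, 17 lower and 13 opposite, and those in NEC replicates only gave 29, with 18, 2 and 9. The lists and the expression come from separate libraries of the same cell types.

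**Figure D3:**
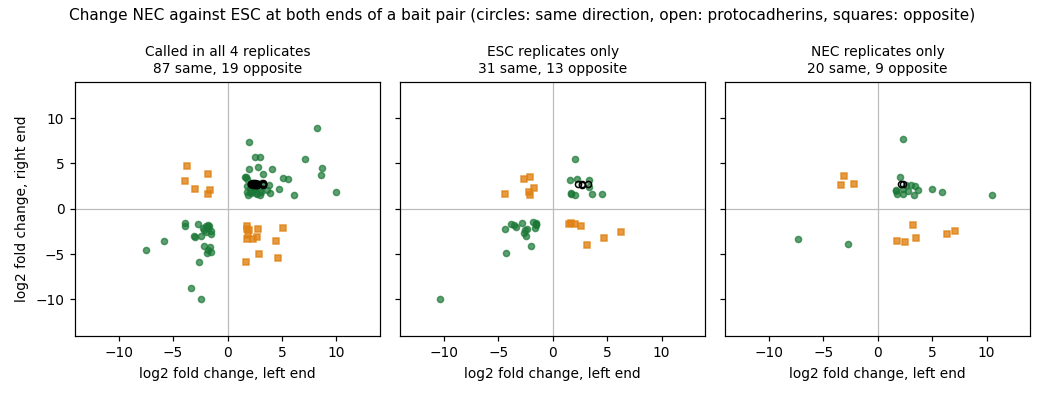
Log2 fold change of expression (NECs against ESCs) at the left and right ends of bait pairs with a called gene at each end, for pairs in all 4 replicates, in ESC replicates only and in NEC replicates only. Circles are pairs that moved in 1 direction (open for protocadherins) and squares pairs that moved in opposite directions, which number 19 of 106, 13 of 44 and 9 of 29.

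The highest scores piled up, with 139 merged ESC pairs at 40 or more and none at 43 or more, and 230 and 15 such pairs in NECs, so the order of pairs in this range says little. Among pairs called in both replicates with a gene annotated as protein-coding at each end, the highest in ESCs joined the calcium channel gene CALHM3 with NEURL, a ubiquitin ligase gene, at a score of 42.1 over 9.78 kb, and the kinase gene PLK3 with HECTD3 and UROD, a haem synthesis gene, at 41.7 over 210 kb (replicates 42.6 and 26.2). The PLK3 pair scored 35.1 in NECs. BTNL2 and HLA-DOB in the MHC scored 41.2 over 405 kb (42.9 and 31.0) and were in neither the merged NEC list nor the first NEC replicate, but scored 21.2 in the second. In NECs the highest was RBM23 with the arginine methyltransferase gene PRMT5, at 54.2 over 21.8 kb (40.8 and 19.8). It was missing from the merged ESC list, yet scored 37.4 in the first ESC replicate. DGKE with C17orf67 scored 52.9 in NECs and 40.4 in ESCs. CAPG, an actin-capping gene, and MAT2A, which makes S-adenosylmethionine, were called from both ends at scores of 40.8 and 40.3 in ESCs and 43.8 and 42.5 in NECs. CAPG fell from 32.7 and 38.5 CPM to 2.85 and 5.55 CPM, while MAT2A had 341 and 389 CPM in ESCs and 306 and 354 in NECs. The BTNL2 and RBM23 pairs were thus listed in 1 merged list and in 1 replicate of the other cell type. Outside the rule for naming, the highest score in the merged NEC list was that of ADAMTS8, a secreted metalloprotease gene, with the non-coding RP11-890B15.2 and RP11-890B15.3, at 108 over 433 kb (51.1 and 42.5), and it scored 41.3 in ESCs (42.9 and 40.4). ADAMTS8 fell from 9.70 and 9.26 to 3.04 and 1.74 CPM.

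LEFTY1 and LEFTY2, inhibitors of Nodal signalling, formed the highest-scoring pair found in ESCs only whose ends changed. The LEFTY1 bait (chr1:226098282-226100464) and the bait in which LEFTY2, RP4-559A3.6 and RP4-559A3.7 start (chr1:226110293-226136406) lay 24.0 kb apart and scored 21.6 in merged ESCs, 13.5 and 14.6 in the replicates, and were called from both ends at 21.6 and 15.7. LEFTY1 had 382 and 361 CPM in ESCs and 0.140 and 0.405 CPM in NECs, which is -10.34 ± 0.23 (SE) as log2 fold change and an adjusted p of 5.87e-06 by edgeR. LEFTY2 had 240 and 251 CPM in ESCs and 0.374 and 0.446 CPM in NECs, which is -9.20 ± 0.15 with an adjusted p of 2.82e-06 by edgeR. The ESC and NEC libraries were far apart at both genes. RP4-559A3.6, a transcript model at the LEFTY2 end, was at least 201-fold lower in NECs. It overlaps LEFTY2, and RP4-559A3.7 overlaps LEFTY1, so that their reads cannot be told apart in these libraries.

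Other ESC-only pairs moved together downwards. PLOD2, a collagen lysyl hydroxylase gene, had 236 and 66.3 CPM in ESCs and 14.7 and 11.0 in NECs, and PLSCR1, a phospholipid scramblase gene 383 kb away, 42.8 and 40.5 against 11.3 and 13.0. The pair scored 18.8 (18.2 and 12.7). AGMAT, an agmatinase gene, and FBLIM1, a filamin-binding gene 172 kb away, scored 19.2 (16.0 and 21.02), AGMAT falling by 2.82 and FBLIM1 by 1.52 on the log2 scale. MFAP4 and ALDH3A1, 355 kb apart, fell by 2.51 and 2.29 on the log2 scale.

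Pairs absent from the NEC lists could also join genes that rose. TAL1, a regulator of blood cell fate, and RP11-511I2.5, 192 kb away, scored 18.9 in ESCs (14.5 and 15.4). TAL1 had 0.106 and 0.0405 CPM in ESCs and 0.889 and 0.649 in NECs, at least 5.49-fold higher, and RP11-511I2.5 had a log2 fold change of 2.37 ± 0.60 (SE). DOCK11, a guanine nucleotide exchange factor gene, and LONRF3, a RING finger gene 478 kb away on chromosome X, scored 18.4 in ESCs (19.0 and 16.7), DOCK11 rising from 23.1 and 16.7 to 59.6 and 61.2 CPM.

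Among the NEC-only pairs, EMX2, a homeobox gene of the developing cortex, and the bait of CASC2 and RAB11FIP2, 500 kb away, scored 22.8 (17.3 and 22.8) and were called from both ends. EMX2 had 0 counts in both ESC libraries and 11.4 and 4.99 CPM in NECs, at least 58.4-fold higher. CASC2, a long non-coding RNA gene, had 1.54 and 1.13 CPM in ESCs and 4.63 and 3.16 in NECs, while RAB11FIP2 had 29.2 and 29.2 CPM in ESCs and 29.5 and 22.4 in NECs. NUAK2, an AMPK-related kinase gene, scored 22.6 (16.6 and 15.7) with LEMD1, 135 kb away, and rose from 18.3 and 15.4 to 83.3 and 83.7 CPM.

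Both the first and the second of the NEC-only pairs moved in opposite directions. RAC2, a GTPase gene of blood cells, fell from 3.13 and 3.36 CPM to 0.374 and 0.243, and MFNG, a Fringe glycosyltransferase gene that modifies Notch, rose from 1.06 and 1.17 to 8.14 and 5.55, at a score of 24.9 (25.6 and 15.01) over 250 kb. TMEM132C rose from 0.530 and 0.445 to 85.1 and 45.6 CPM, and its paralogue TMEM132D, 1634 kb away, fell from 25.2 and 24.3 to 4.49 and 4.26, at a score of 23.9 (27.3 and 17.5). SLC16A11 and ASGR1, 135 kb apart, scored 23.8 (18.3 and 15.2), with log2 fold changes of 3.37 ± 0.79 and 1.55 ± 0.38 (SE). The non-coding RNA gene AC004540.4 was joined in NECs only to the bait of HOXA3, HOXA5 and HOXA6, 768 kb away, at 19.6 (16.2 and 18.3). HOXA3 had 0 counts in ESCs and 1.40 and 0.932 CPM in NECs, and AC004540.4 had 0.689 and 0.809 against 3.32 and 4.42.

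Pairs called in all 4 replicates joined genes that changed a great deal while the contact was listed in both cell types. ZBTB16, a zinc finger regulator of progenitor cells, and NNMT, nicotinamide N-methyltransferase, lay 198 kb apart and scored 24.2 in ESCs (21.02 and 19.3) and 40.4 in NECs (27.7 and 42.95). ZBTB16 had 0 and 0.121 CPM in ESCs and 33.4 and 28.1 in NECs, at least 219-fold higher, and NNMT was at least 4.70-fold higher. GAL, which encodes the neuropeptide galanin, and CPT1A, the carnitine palmitoyltransferase that admits fatty acids to mitochondria, scored 17.2 in ESCs (13.8 and 17.6) and 25.5 in NECs (20.4 and 22.6) over 155 kb. GAL fell from 102 and 187 CPM to 0.468 and 1.05, and CPT1A from 27.0 and 42.6 to 1.54 and 1.34. In the first pair both genes rose and in the second both fell, and both pairs had the higher score in NECs.

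VAX2, a homeobox gene of the ventral eye, and ATP6V1B1, a proton pump subunit gene 34.8 kb away, were at 0 counts in ESCs and at 1.78 and 1.54 and at 3.51 and 1.86 CPM in NECs. The pair scored 37.6 in ESCs (22.8 and 28.1) and 40.4 in NECs (34.7 and 19.6). GUCY1A3 and GUCY1B3, the subunit genes of soluble guanylate cyclase, scored 17.0 and 21.1 over 92.5 kb. GUCY1A3 was at least 15.6-fold higher in NECs and GUCY1B3 rose from 0.901 and 0.526 to 10.7 and 8.27 CPM. PAX3 and the non-coding AC010980.2, 25.2 kb apart, scored 33.2 in ESCs and 24.0 in NECs, and PAX3 rose from 0.265 and 0.324 to 66.3 and 17.9 CPM, again with unequal NEC libraries. KCTD19 and TPPP3 scored 25.3 and 31.1, KCTD19 at least 6.28-fold higher and TPPP3 rising by a log2 fold change of 4.43 ± 0.74 (SE).

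A few of the pairs in all 4 replicates moved apart. OLIG3, a neural tube regulator, rose from 0.848 and 0.566 to 16.3 and 20.2 CPM while IL20RA, an interleukin receptor gene 449 kb away, was at least 7.29-fold lower, at scores of 22.2 in ESCs and 19.5 in NECs. NID2, which encodes a basement membrane nidogen, rose from 8.48 and 7.44 to 139 and 261 CPM while PTGER2, a prostaglandin receptor gene 242 kb away, was at least 9.5-fold lower, at 16.1 and 14.4.

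A further 3 pairs in all 4 replicates fell outside the rule for naming and were chosen after their values were seen, for what their genes are known to do in development. IRX3 and IRX5, Iroquois homeobox genes, lay 644 kb apart and were called from both ends, at 32.8 in ESCs (20.8 and 22.1) and 40.3 in NECs (19.3 and 34.8). IRX3 rose from 0.742 and 0.890 to 46.8 and 30.6 CPM and IRX5 from 1.11 and 0.890 to 11.7 and 8.23. CRNDE, which starts in the IRX5 bait on the other strand, rose from 5.19 and 3.68 to 24.0 and 18.5. FGF19 and FGF4, growth factor genes 75.1 kb apart, scored 21.4 and 25.1, FGF19 falling from 3.97 and 8.21 to 0.749 and 0.486 CPM and FGF4 from 1.85 and 2.91 CPM to 0 counts. CRABP2, a retinoic acid-binding protein gene, rose from 48.4 and 33.0 to 459 and 299 CPM, and INSRR, an insulin receptor-related gene 154 kb away, was at least 5.27-fold higher, at 31.4 in ESCs and 16.6 in NECs.

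HOX promoters were joined within their clusters in both cell types. In the HOXA cluster 26 of 36 possible pairs were called in merged ESCs (8 and 23 in the replicates) and 20 in merged NECs (3 and 16). In HOXB 31 of 45 were called in ESCs (7 and 19) and 20 in NECs (8 and 7), in HOXC 19 of 21 in ESCs (2 and 19) and 19 in NECs (10 and 8), and in HOXD 15 of 36 in ESCs (3 and 11) and 20 in NECs (3 and 7). All baits at the same distances were called at between 24.1% and 27.3%. In the first replicates this excess was not seen in every cluster. In ESC replicate 1 the shares were 9.52% for HOXC, 8.33% for HOXD and 15.6% for HOXB, against 15.95%, 16.02% and 15.7% of all baits. In NEC replicate 1 they were 8.33% for both HOXA and HOXD, against 15.2% and 15.3%. The ESC replicates differed more from each other than the merged lists of the cell types did, and in HOXB, HOXC and HOXD both NEC replicates lay within the range of the ESC replicates. The order of ESCs and NECs within a cluster was therefore not larger than the spread between replicates.

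Both ends were silent in ESCs at all possible pairs of each HOX cluster. In NECs both ends were silent at 15 of 36 HOXA, 21 of 45 HOXB, 15 of 21 HOXC and 36 of 36 HOXD pairs. The highest-scoring pairs were HOXB5 with HOXB9, at 40.3 in ESCs and 23.4 in NECs, HOXD10 with HOXD4, at 28.3 and 38.8, HOXA11 with HOXA13, at 22.0 and 19.3, and HOXC13 with HOXC9, at 17.7 and 22.8. None of the 8 HOX genes at their ends reached 1 CPM in a library.

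Developmental transcription factors outside the HOX clusters were paired 31 times among 72 possible pairs, whose median distance is 820 kb, in ESCs (21 and 29 in the replicates) and 21 times in NECs (12 and 18). All baits at the same distances were called at 10.2% and 9.73%, against 43.1% and 29.2% here. Both ends were silent at 32 of these possible pairs in ESCs and 23 in NECs. The replicate counts of the cell types did not overlap, but an exact permutation test of 2 against 2 allows no p under 0.333. Of 138 tested genes of the full list, 64 were higher in NECs and 21 lower, against 11.4% and 9.68% of all genes tested.

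The clustered protocadherins, adhesion genes of neurons, differed between their 3 clusters. In the alpha cluster 2 of 28 possible pairs were called in each merged list, 7.14%, against 25.7% and 24.0% of all baits at these distances. In the beta cluster 36 of 91 were called in ESCs (31 and 22) and 27 in NECs (29 and 13), and in the gamma cluster 33 of 91 in ESCs (18 and 25) and 29 in NECs (24 and 15), against between 23.7% and 25.5% of all baits. All 18 tested gamma genes were higher in NECs, PCDHGA12 rising from 35.0 and 38.7 to 248 and 233 CPM. None of the 11 tested alpha genes was called in either direction, and 5 of 12 tested beta genes were higher. Of all genes tested 11.4% were higher and 9.68% lower. The counts of alpha and of gamma genes include exons shared by their members, so the members are not independent.

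**Figure D4:**
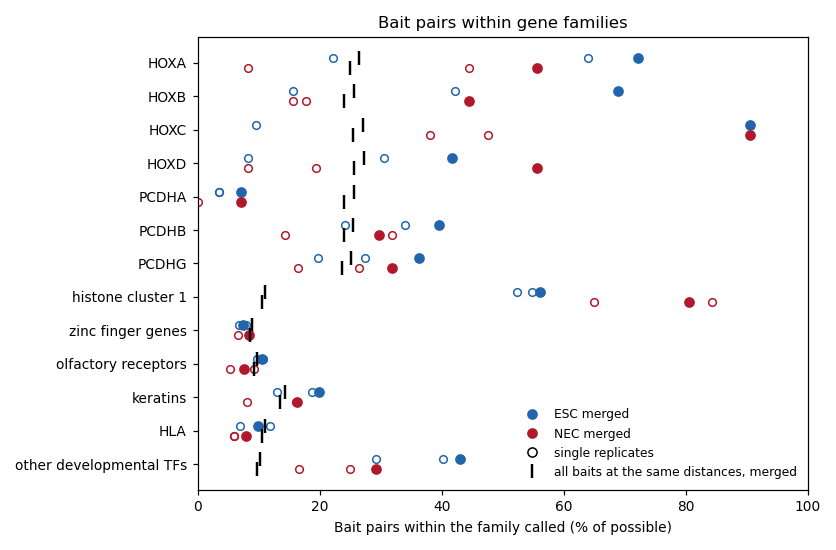
Bait pairs within gene families that were called, as percent of the possible pairs within 2 Mb, in ESCs and NECs. Filled circles are merged lists, open circles single replicates and ticks all baits at the same distances, and histone cluster 1 stands at 56.1% and 80.5%, far right of its ticks.

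Histone cluster 1 held the densest set of bait pairs. Its 39 baits span chr6:25726466-27864923 in a left block of 24 and a right block of 15 baits that lie at least 816 kb apart. The right block is itself split, with baits 27 and 28 in chromosome order 659 kb apart, so its pairs range from 3.02 to 760 kb. The first bait of the left block lies 287 kb from the next and had no called histone partner in any list. Of 729 possible pairs 409 (56.1%) were called in merged ESCs, with 382 and 400 in the replicates, and 587 (80.5%) in merged NECs, with 474 and 615. All baits at the same distances were called at 11.0% and 10.5%. In this cluster the NEC replicates lay above both ESC replicates.

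The difference was seen mainly between the blocks and within the left one. Of 348 pairs across the gap 202 (58.0%) were called in ESCs (208 and 200) and 304 (87.4%) in NECs (277 and 324), and within the left block 137 of 276 were called in ESCs (111 and 135) and 202 in NECs (136 and 213). Within the right block the counts were 70 and 81 of 105, with replicate counts of 63 and 65 in ESCs and 61 and 78 in NECs that overlap. Of 429 possible pairs between a histone bait and the 11 baits in the gap that hold no histone gene, 15 (3.50%) were called in ESCs (12 and 26) and 31 (7.23%) in NECs (36 and 64). All baits at the same distances were called at 6.87% and 6.58%. In the ESC replicates the shares were 2.80% and 6.06%, against 6.27% and 6.55% of all baits. In the NEC replicates they were 8.39% and 14.9%, against 6.49% and 5.58%, so these pairs too were called more often in NECs. An exact permutation test of 2 against 2 replicates could again not go below p = 0.333.

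HIST1H3E and HIST1H4I, whose promoters stand above, lay across the gap at 878 kb and scored 40.8 in ESCs (41.3 and 35.5) and 66.3 in NECs (43.5 and 58.6). HIST1H2BK and HIST1H1B lay 722 kb apart in the right block, on either side of the split within it. They scored 40.2 in ESCs (29.7 and 29.4) and 53.9 in NECs (31.5 and 34.6). Both pairs were called from each end in both cell types. HIST1H4H and the bait of HIST1H2BJ and HIST1H2AG, across the gap at 816 kb, scored 41.6 and 41.3.

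No matching change was seen in the expression calls. Of 21 histone genes tested 1 was higher in NECs and 0 were lower by edgeR, with a median log2 fold change of -0.39. Of all genes tested 11.4% were higher and 9.68% lower, and a count over so few genes cannot tell the cluster from them. HIST1H4I had 2.28 and 2.39 CPM in ESCs and 1.26 and 2.03 in NECs, and HIST1H2BK had 3.39 and 8.58 against 12.8 and 15.4. Most histone transcripts of S phase carry no poly(A) tail and are poorly seen by mRNA-seq, and near-identical histone genes can share reads, so their levels here are uncertain.

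**Figure D5:**
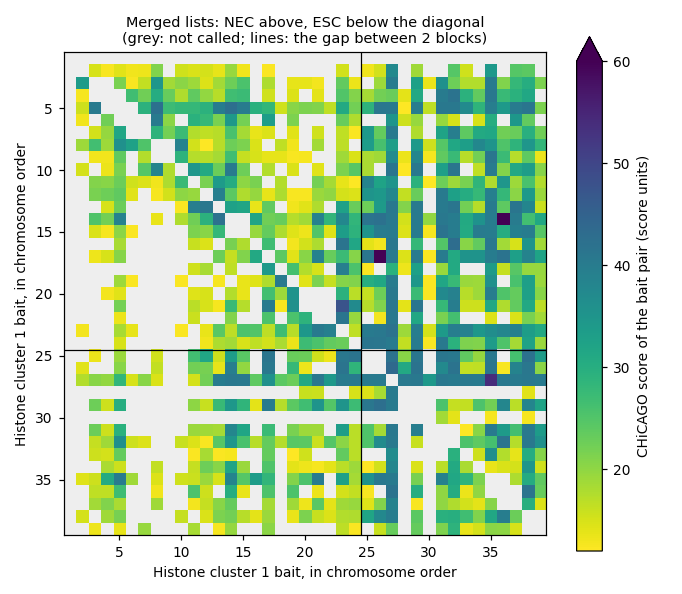
CHiCAGO score of each pair of the 39 histone cluster 1 baits in chromosome order, from the merged NEC list above the diagonal and the merged ESC list below it. Grey pairs were not called, the lines mark the gap of 816 kb, and 304 of 348 pairs across it were called in NECs against 202 in ESCs.

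Olfactory receptor promoters were mostly silent in these cells. Of 3994 possible pairs between them, both ends were silent at 3805 in ESCs and 3856 in NECs. Of the same pairs 421 (10.5%) were called in ESCs (392 and 425) and 304 (7.61%) in NECs (370 and 210), against 9.72% and 9.27% of all baits. Both NEC replicates lay under both ESC replicates, the first by a small margin. By distance the olfactory pairs departed from all baits in opposite ways. Under 200 kb 16.9% were called in ESCs and 14.6% in NECs, against 23.3% and 21.9% of all baits. At 200 to 500 kb the shares were 17.1% and 9.05%, against 10.7% and 9.96%. At 500 kb to 1 Mb they were 6.17% and 4.71%, against 2.63% and 2.85%. Zinc finger promoters were paired 201 times in ESCs and 226 times in NECs among 2678 possible pairs. These totals of 7.51% and 8.44%, against 8.99% and 8.60% of all baits, hid differences by distance. Under 200 kb 16.7% of zinc finger pairs were called in ESCs, against 23.3% of all baits. In NECs the gap was smaller, at 20.98% against 21.9%. At 500 kb to 1 Mb the zinc finger shares were the higher ones, at 4.35% and 4.81% against 2.63% and 2.85%. Keratins were paired 120 and 98 times among 601 (20.0% and 16.3% against 14.3% and 13.5%). The ESC replicates gave 18.8% and 13.0%, against 10.6% and 11.0% of all baits. The first NEC replicate gave 16.1% against 10.5%, but the second gave 8.15%, below the 9.06% of all baits. Under 200 kb the merged keratin shares were 15.8% and 14.7%, below the 23.3% and 21.9% of all baits. At 500 kb to 1 Mb they were 21.1% and 17.1%, above the 2.63% and 2.85% of all baits. HLA genes were paired 10 and 8 times among 101 (9.90% and 7.92% against 11.07% and 10.49%). Ribosomal protein genes were paired 4 and 3 times among 11 (36.4% and 27.3% against 12.4% and 11.7%). Their replicates held 2 and 2 of these pairs in ESCs and 2 and 0 in NECs, and 0 were in all 4.

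Over all genes whose symbols share a stem, pairs were called at 10.3% in both cell types, against 9.04% and 8.64% of all baits at their distances. Without histone cluster 1 the shares were 9.03% in ESCs and 8.34% in NECs, against 8.98% and 8.59%. Single replicates then gave 7.52% and 8.02% in ESCs, against 7.00% and 7.31% of all baits, and 7.63% and 6.05% in NECs, against 7.12% and 6.02%.

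CTCF core matches were found in 653 baits in the forward and 614 in the reverse direction, and 5.62% of the baits held either. At 200 to 500 kb, 29 of 147 possible pairs with matches that face each other were called in ESCs (29 and 23 in the replicates) and 32 in NECs (23 and 23), which is 19.7% (95% Wilson interval 14.1 to 26.9) and 21.8% (15.9 to 29.1). Of 155 pairs whose matches point apart 11 were called in each cell type, 7.10% (4.01 to 12.3), with 7 and 12 in the ESC and 8 and 13 in the NEC replicates. Pairs with matches on the same strand stood between them, at 32 and 33 of 271. Facing pairs were thus called more often than pairs that point apart in each of the 4 replicates at this distance. Under 100 kb the shares were 29.9% for facing and 23.9% for apart pairs in ESCs and 34.3% and 28.2% in NECs, with ESC intervals of 20.2 to 41.7 and 15.5 to 35.0 that overlap. At 500 kb to 2 Mb they were 0.676% and 0.574% in ESCs and 1.52% and 0.765% in NECs, and in ESC replicate 2 the order was reversed, at 1.01% and 1.34%.

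The 3 shown examples are facing pairs, of which 1 lies at 200 to 500 kb. RP11-54O7.1 and the bait of RP11-54O7.3 and SAMD11 scored 40.3 in ESCs and 40.8 in NECs over 22.3 kb. DTX4, a Notch pathway ubiquitin ligase gene, and OR5A2, an olfactory receptor gene, scored 25.5 (18.6 and 26.7) and 40.8 (42.0 and 41.3) over 248 kb. The bait without a gene start and RP11-380D23.1 scored 23.7 and 40.1 over 515 kb. Facing exact matches were found at 69 of the 27095 ESC pairs and 80 of the 26377 NEC pairs, so they describe few of the pairs. With 1 mismatch allowed the contrast at 200 to 500 kb shrank to 11.96% against 10.6% in ESCs and 12.05% against 10.4% in NECs. A match is not a bound site, and binding was not measured here.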

How the data were processed

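PCHi-C was measured in 2 biological replicates each of H9 ESCs and day 7 NECs, and mRNA-seq in 2 each. Groups come from the sample labels.

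For PCHi-C, the authors mapped reads to GRCh37 with HiCUP, removed duplicates, scored pairs of HindIII fragments with CHiCAGO and deposited those with a score of at least 12, as 4 replicate lists and 2 lists from both replicates. The score is the negative logarithm of a p-value weighted for distance. The lists hold no read counts, so their depth is unknown. In each list a contact with a fragment that is no bait has a mirrored line, with 26 to 34 exceptions per list, and a contact between baits has none. Both directions of a bait pair were counted once, with the higher score. The baits were all fragments listed as a bait in any of the 6 lists, and all 21833 match fragments of a HindIII digest of GRCh37.

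For expression, the authors deposited raw read counts per gene for 31017 genes, mapped with TopHat (TopHat2 2.0.8b and Bowtie 1.0.0 in the submitters' processing notes) and counted with SeqMonk on Ensembl gene models without regard to strand, so that reads of overlapping genes cannot be told apart. Libraries held between 19234087 and 25356382 counts. Genes were tested with edgeR 4.0.16 (R 4.3.3, TMM, filterByExpr with a minimum count of 10, quasi-likelihood test, Benjamini-Hochberg adjustment). A gene was called with the adjusted p below 0.05 and a log2 fold change beyond 1.5 either way, and was expressed at 1 CPM or more. Standard errors are of the log2 fold change. A gene with at most 3 counts in each library of a cell type has its fold given as a lower bound from 3 counts per library. The test was checked on simulated counts. DESeq2 1.42.0 served as an alternative. Python 3.11.15 with pandas 2.3.3, scipy 1.17.1 and pysam 0.24.0 did the rest. A gene was placed in a bait by its start in the count table, and 22223 genes in 18038 baits were. A gene type was found for 28730 genes, and some histone genes have none.

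Possible pairs are all bait pairs within 2 Mb. Family shares are set against all baits in the same distance windows. Families were matched by symbol, developmental transcription factors by full symbols. The CTCF core consensus has 12 letters and was searched on both strands of each bait. Sequences were read from GRCh37. Some promoter windows and 1 gene are not reported here.

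Named were the 4 highest-scoring pairs of each cell type with protein-coding ends called in both replicates, up to 6 pairs found in both replicates of 1 cell type only with a called gene at each end, the 8 pairs in all 4 replicates with the largest smaller change, the 3 baits with most partners, the marker genes, and the highest-scoring pair of each family. The members, lists and markers were chosen with earlier results of these data known. Replicate numbers were not shown to pair the mRNA-seq libraries. Alternatives changed the score, the distance limit, the expression threshold, the normalization, the test and the replicates.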

Additional observations from a re-analysis of the deposited data

Results flagged for a closer look

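The lists also hold calls between baits that the distance limit left out, in numbers above the 3 that a count of 0 allows. Here each listed direction of a contact was counted, unlike the bait pairs above. Between chromosomes there were 11 such calls in the merged ESC list and 51 and 49 in the ESC replicates, and 23 in the merged NEC list and 75 and 87 in the NEC replicates. On 1 chromosome beyond 2 Mb there were 71 in the merged ESC list and 500 and 582 in the replicates, and 92 in the merged NEC list and 572 and 362 in the replicates. The merged list of each cell type held fewer of both kinds than either of its replicates. The deposited lists contain no control libraries.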

How the results depend on the processing

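At a score of at least 15 there were 10897 ESC and 10726 NEC bait pairs, 279 with ends changed in 1 direction and 96 in opposite directions, and with 15 required in each replicate 193 ESC-only, 159 NEC-only and 1223 in all 4, while same-stem pairs were called at 4.87% and 5.14%. ESC pairs with both ends expressed made up 54.4% at 0.5 CPM, 40.8% at 3 CPM, 41.1% with baits of 1 gene start and 58.5% with protein-coding starts, and NEC pairs 58.3%, 44.6%, 45.9% and 63.8%. With the adjusted p alone as threshold, 4288 genes were higher and 3979 lower, and 4532 pairs moved in 1 direction and 3475 in opposite ones. Facing CTCF core matches were at 0.255% of ESC pairs, 0.312% at a score of 15, 0.218% with matches on 1 strand only and 12.51% with 1 mismatch, and at 0.303% of NEC pairs, 13.2% with 1 mismatch.

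With single replicates in place of a merged list, pairs in both cell types ranged from 24.6% to 31.3%, ESC pairs with both ends expressed from 46.5% to 48.0% and NEC pairs from 48.7% to 55.3%, ESC CTCF shares from 0.197% to 0.245% and NEC shares from 0.251% to 0.332%, same-stem shares from 8.75% to 9.31% in ESCs and 8.21% to 9.20% in NECs, and bait pairs from 24072 to 25437 in ESCs and 21387 to 25461 in NECs. Leaving out 1 mRNA-seq library gave 48.7% to 49.1% of ESC and 53.0% to 53.1% of NEC pairs with both ends expressed, 1282 to 1639 genes higher, 1060 to 1265 lower, 509 to 739 pairs in 1 direction and 201 to 337 opposite; the lone library is then assumed to vary like the other group. With the replicate number as a block there were 1450 genes higher, 1156 lower, 605 pairs in 1 direction and 258 opposite, and the block changed no call by over 1.5 times. Same-numbered libraries deviated together with r = 0.061, which does not pair them. DESeq2 called 1345 and 1101 genes. Chosen after seeing the data, leaving out histone baits gave 26643 ESC and 25723 NEC pairs. The lists' depth is unknown, and the cause of these shifts was not tested.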
